A study of Mus musculus with 6 samples.

Results

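Noncoding snoRNA host genes were followed through knockdown of the chromatin remodeler subunits Chd4 and Mbd3 in mouse embryonic stem cells and through early neural differentiation. The genes considered were Gas5 and the small nucleolar RNA host genes Snhg1, Snhg3, Snhg5, Snhg6, Snhg7, Snhg8, Snhg11 and Snhg12, 9 in all, and a gene was used where a probe set of the array carried its symbol alone. This left 7 of the 9 genes, among 22180 genes with such a probe set. Gas5 and Snhg8 share their probe sets with other symbols and are not analysed here. The RefSeq table classes each of the 7 as a long noncoding RNA. All 7 lay above the median intensity of all probe sets on every array, so that none was lost to a filter on dim values.

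Small nucleolar RNAs (snoRNAs) are short nuclear RNAs that direct chemical modification of ribosomal RNA: box C/D snoRNAs guide ribose methylation and box H/ACA snoRNAs guide pseudouridylation. In mammals most of them are cut out of the introns of longer host transcripts. Some hosts encode proteins of translation, while the spliced exons of the hosts described here have no long reading frame, and such spliced RNAs are known targets of nonsense-mediated decay. Many hosts start in a pyrimidine tract at the cap, the 5′ terminal oligopyrimidine (TOP) start shared with ribosomal protein genes, which ties their production and stability to growth and translation.

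The stem cells carried a lentiviral short hairpin RNA (shRNA): a control hairpin, a hairpin against Chd4 or a hairpin against Mbd3. In NuRD, a complex that remodels nucleosomes and deacetylates histones, Chd4 supplies the ATPase activity and Mbd3 is a core subunit that links its parts. Each line was sampled as stem cells in serum medium with leukemia inhibitory factor on gelatin, called day 0, and after 4 days as aggregates in serum-replacement medium for neural differentiation, called day 4. The control carried the same kind of virus. The labels name neither the hairpin sequences nor the stem cell line, and are silent on pooling of dishes. The 6 groups hold 1 array each, so a difference between 2 arrays has no replicate behind it and the small number of arrays sets the precision. Values are intensities on a linear scale as deposited, and differences are on the log2 scale.

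The labels were checked on the targets. In the Chd4 line, Chd4 intensity was 29.8% of that in control at day 0 and 71.3% at day 4. In the Mbd3 line, Mbd3 intensity was 43.0% of control at day 0 and 75.5% at day 4, so that each target lay closer to control at the later day. All 7 stem cell markers (among them Pou5f1, Nanog and Esrrb) were at or above the array median on the 3 day 0 arrays. The median of 6 early neural markers was 47.7 in control at day 0 and 395 at day 4, but 73.3 in the Chd4 line and 84.9 in the Mbd3 line at day 4. The median of 5 fibroblast markers lay between 58.2 and 73.2 on all arrays, and that of 6 mesoderm and endoderm markers between 44.6 and 55.5. The median of 4 neuron markers was 231 in control at day 4, and 29.8 and 33.6 in the Chd4 and Mbd3 lines. The stem cell marker median was 77.6 in control at day 4 against 187 and 141 in those lines, and 7 of 7 stem cell markers were at least 1.5-fold above control in each. The day 4 arrays thus differ in stem cell and neural markers as well as in hairpin. The part of cell makeup in the day 4 values was not tested, and in bulk RNA fewer cells of a type and less RNA per cell cannot be told apart.

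The start regions of the hosts are shown first, since a TOP start is defined by the bases at the cap. RefSeq start windows (assembly GRCm38.p6) were found for 6 of the 7 hosts; Snhg6 had none. Each line gives the 50 bases before the annotated start and the first 50 bases from it, 5′ to 3′ on the strand of the gene. Capitals mark the letters TATA and, around the start, a C followed by at least 4 letters that are each C or T.
Snhg1, chr19:8723437-8723536, plus strand: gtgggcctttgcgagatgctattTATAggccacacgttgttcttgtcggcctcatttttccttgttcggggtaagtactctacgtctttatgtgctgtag
Snhg3, chr4:132353637-132353736, minus strand: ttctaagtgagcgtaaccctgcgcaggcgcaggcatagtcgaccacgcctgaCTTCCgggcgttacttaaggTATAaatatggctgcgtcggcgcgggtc
Snhg5, chr9:88522848-88522947, minus strand: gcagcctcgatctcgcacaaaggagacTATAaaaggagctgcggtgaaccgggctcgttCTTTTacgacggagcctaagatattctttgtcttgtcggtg
Snhg7, chr2:26640195-26640294, minus strand: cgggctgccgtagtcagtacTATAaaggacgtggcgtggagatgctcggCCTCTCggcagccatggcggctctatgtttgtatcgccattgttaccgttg
Snhg11, chr2:158375663-158375762, plus strand: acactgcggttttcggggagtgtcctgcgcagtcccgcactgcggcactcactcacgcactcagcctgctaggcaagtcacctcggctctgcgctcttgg
Snhg12, chr4:132308628-132308727, plus strand: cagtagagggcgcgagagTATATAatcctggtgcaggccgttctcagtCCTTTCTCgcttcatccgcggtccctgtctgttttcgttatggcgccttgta

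The pyrimidine run, read on the strand of the gene with its C from 5 bases before the start to the 10th transcribed base, occurred in 4 of the 6 windows (Snhg3, Snhg5, Snhg7 and Snhg12) and in 23.2% of all 32851 start windows in the table. The letters TATA, which read the same on both strands, stood within the 50 bases before the start in 4 of the 6 windows (Snhg1, Snhg5, Snhg7 and Snhg12) and in 9.08% of all windows. Both features together were found in Snhg5, Snhg7 and Snhg12, and in 2.09% of all windows. In Snhg3 TATA lay after the annotated start. Snhg11 had neither feature. The palindrome CACGTG, the core of the E-box that MYC proteins bind, was in none of the 6 windows of 300 bases and in 7.15% of all windows. The marked runs of Snhg7 and Snhg12 spanned the annotated start, while those of Snhg3 and Snhg5 began after it. A run in this window is thus not by itself a TOP start. These matches describe letters in a window and show no binding.

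Snhg12 differed most from control among the hosts at day 0 in both knockdown lines. It carries box H/ACA snoRNAs (Snora16a, Snora44 and Snora61) and a box C/D snoRNA (Snord99). Its intensity was 233 in control, 132 in the Chd4 line and 137 in the Mbd3 line at day 0, and 126, 176 and 168 in the same order at day 4. The control array of day 0 stood above the other 5, and the control array of day 4 was the lowest.

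At day 0 Snhg12 was thus 1.76-fold lower in the Chd4 line than in control (log2 difference -0.81) and 1.70-fold lower in the Mbd3 line (-0.76). Of the genes compared, 1.33% were at least as far below control in the Chd4 line and 0.866% in the Mbd3 line. Both comparisons use the same control array. The knockdown lines differed from each other by -0.05. In control cells Snhg12 was 1.85-fold lower at day 4 than at day 0 (-0.89), whereas it was 1.33-fold higher in the Chd4 line (0.41) and 1.22-fold higher in the Mbd3 line (0.29). At day 4 it was accordingly higher in the knockdown lines than in control, by 0.48 and 0.42.

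Snhg12 shared this order of arrays in part with Myc, which encodes a transcription factor that drives ribosome production. Myc stood at 475 in control at day 0 and between 148 and 258 on the other 5 arrays, with 170 in the Chd4 line and 148 in the Mbd3 line at day 0 and 152, 258 and 198 in the control, Chd4 and Mbd3 lines at day 4. In both genes the day 0 control array was the highest, and day 4 was lower than day 0 in control and higher in both knockdown lines. The lowest array differed: control at day 4 for Snhg12 and the Mbd3 line at day 0 for Myc. The share of all genes with these signs was not counted, and a link between Myc and Snhg12 was not tested.

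**Figure D1:**
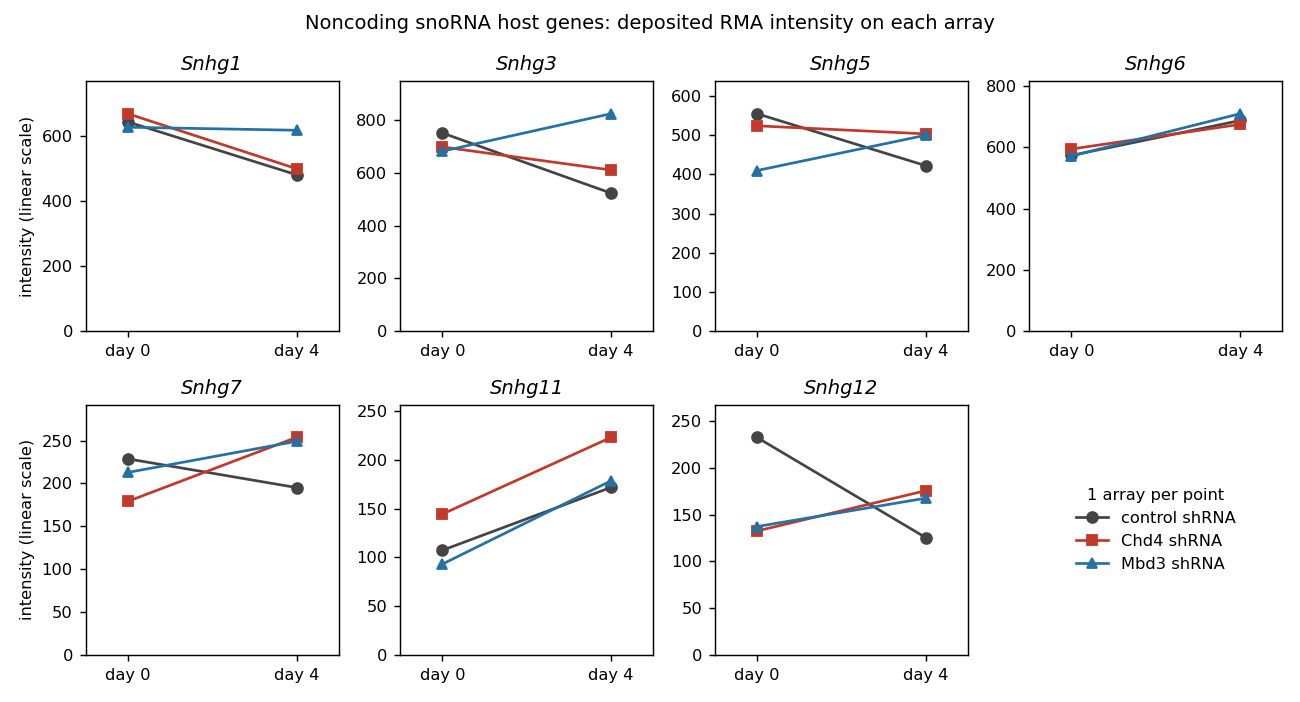
Deposited intensity (linear scale, from 0) of the 7 hosts at day 0 and day 4 in the control (grey circles), Chd4 shRNA (red squares) and Mbd3 shRNA (blue triangles) lines, 1 array per point. Snhg12 is at 233 on the day 0 control array and between 126 and 176 elsewhere, and Snhg11 is higher at day 4 in all 3 lines.

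Snhg11, whose transcript is abundant in neurons of the mouse brain, was the host with the widest range over the arrays, 2.40-fold. Its intensity was 107 in control, 145 in the Chd4 line and 93.2 in the Mbd3 line at day 0, and 172, 223 and 179 at day 4. Every day 4 array stood above every day 0 array. Day 4 exceeded day 0 by 0.68 in control, 0.63 in the Chd4 line and 0.94 in the Mbd3 line, or 1.60-fold, 1.55-fold and 1.92-fold.

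The Chd4 line had the higher Snhg11 intensity on both days, 1.35-fold above control at day 0 (0.43) and 1.30-fold at day 4 (0.38). Against the Mbd3 line it was 1.55-fold higher at day 0 (0.63) and higher by 0.32 at day 4; this comparison uses no control array. A second probe set of Snhg11, dimmer on average, ran differently. It gave 84.0 in control, 89.3 in the Chd4 line and 63.3 in the Mbd3 line at day 0, and 75.9, 103 and 95.7 at day 4. By that probe set day 4 was lower than day 0 in control and higher in both knockdown lines. With the probe sets averaged, the day difference of control was 0.27 and that of the Chd4 line 0.42, under 1.5-fold, while that of the Mbd3 line was 0.77.

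Among the box C/D hosts, Snhg6, which carries Snord87, varied least, by 1.24-fold over all arrays. It read 573 in control, 594 in the Chd4 line and 571 in the Mbd3 line at day 0, and 687, 675 and 709 at day 4. The 3 lines stood close together on each day and all were higher at day 4, by 0.26, 0.18 and 0.31. Knockdown and control differed by 0.05 or less in size on either day. In the RefSeq table the span of Snhg6 overlaps that of Mcmdc2, and the 6 other hosts overlap no gene other than snoRNAs.

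Snhg1, which carries a series of box C/D snoRNAs including Snord22, read 643 in control, 668 in the Chd4 line and 626 in the Mbd3 line at day 0, and 480, 499 and 617 at day 4. Control and the Chd4 line were lower at day 4 by the same amount, with a log2 difference of -0.42 in each. The Mbd3 line differed by -0.02 between the days and stood 1.28-fold above control at day 4 (0.36).

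Snhg5, the host of the U50 box C/D snoRNAs, read 555, 524 and 410 in the control, Chd4 and Mbd3 lines at day 0 and 422, 503 and 500 at day 4. The Mbd3 array of day 0 and the control array of day 4 were the low values. The Mbd3 line was 1.35-fold below control at day 0 (-0.44) and 1.18-fold above it at day 4 (0.24). The Chd4 line differed from control by -0.08 at day 0 and by 0.25 at day 4.

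Among the box H/ACA hosts, Snhg3 carries Snora73a and Snora73b, the U17 snoRNAs that take part in cleavage of the ribosomal RNA precursor. It read 751 in control, 698 in the Chd4 line and 682 in the Mbd3 line at day 0, and 523, 611 and 825 at day 4. The days ran in opposite directions: day 4 was lower in control (-0.52) and in the Chd4 line (-0.19) and higher in the Mbd3 line (0.27). At day 4 the Mbd3 line was 1.58-fold above control (0.66) and 1.35-fold above the Chd4 line.

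Snhg7, the host of Snora17 and Snora43, read 229 in control, 179 in the Chd4 line and 213 in the Mbd3 line at day 0, and 195, 254 and 249 at day 4. The Chd4 array was the lowest of all at day 0 and the highest of all at day 4. Its difference from control was -0.35 at day 0 and 0.38 at day 4, and the Mbd3 line differed by -0.10 and 0.35.

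Counted at 1.5-fold, few hosts passed in any comparison. At day 0, 1 of the 7 hosts, Snhg12, was lower in the Chd4 line and 0 were higher, against 7.59% of 13446 genes compared in either direction and 3.56% lower. In the Mbd3 line Snhg12 was again the 1 host past 1.5-fold, against 4.99% of 13389 genes in either direction and 2.04% lower. At day 4, 0 of the 7 hosts passed in the Chd4 line, against 26.6% of 13733 genes, and 1, Snhg3, was higher in the Mbd3 line, against 21.2% of 13588 genes in either direction and 8.04% higher. Between the days in control cells 2 hosts passed, Snhg11 higher and Snhg12 lower, against 28.5% of 13831 genes, 17.3% higher and 11.2% lower. In the knockdown lines Snhg11 alone passed, in both cases higher, against 10.5% of 13406 genes in either direction and 6.21% higher in the Chd4 line, and 10.4% of 13348 genes and 5.69% higher in the Mbd3 line. The knockdown lines differed from each other past 1.5-fold for Snhg11, higher in the Chd4 line, at day 0, against 7.12% of genes in either direction and 3.27% higher, and for 0 hosts at day 4, against 4.51%. These counts of 0 to 2 among 7 genes are to be read against those shares and single out no change of the hosts as a class.

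**Figure D2:**
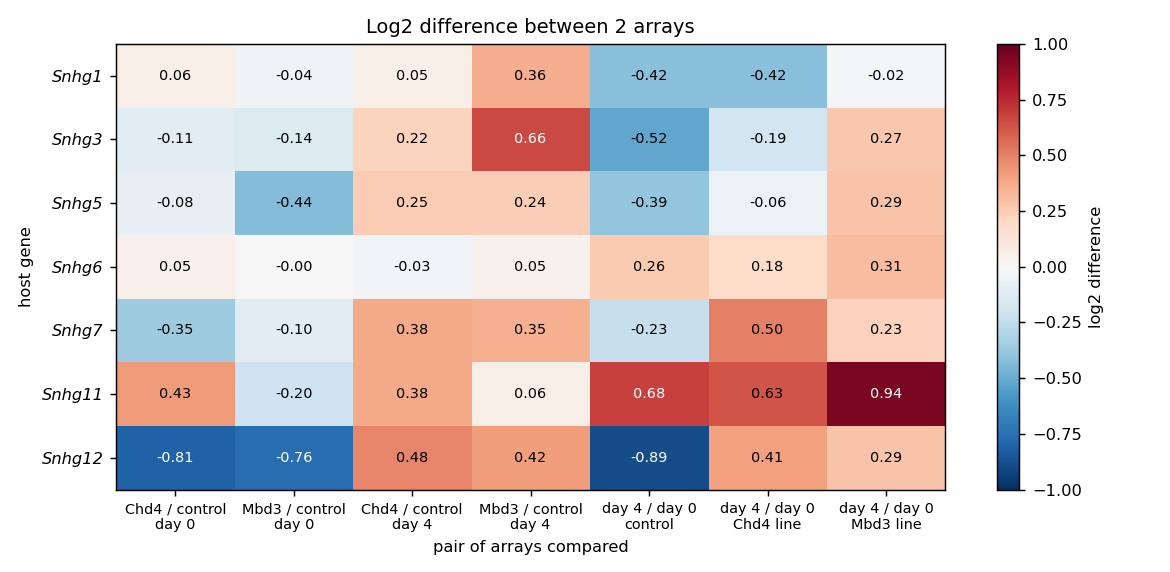
Log2 differences of the 7 hosts (rows) between the pairs of arrays named under each of the 7 columns; red is higher and blue lower in the first-named array, and the number is the difference. The Snhg12 row holds -0.81, -0.76 and -0.89 in the comparisons that use the day 0 control array and 0.29 to 0.48 in the other 4 columns.

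The hosts were split around control in the Chd4 line at day 0, with 3 higher and 4 lower, where 51.3% of all genes compared were lower. The median difference from control over the 7 hosts was -0.08 in the Chd4 line and -0.14 in the Mbd3 line at day 0, where the median over all genes compared was -0.01 and -0.002. At day 4 it was 0.25 in the Chd4 line and 0.35 in the Mbd3 line, where all genes had medians of -0.04 and -0.06. At day 4 the readings of 6 of the 7 hosts were above control in the Chd4 line, with Snhg6 at -0.03, where 46.1% of genes were above it, and 7 of 7 in the Mbd3 line, where 44.1% were. All 7 lay below control in the Mbd3 line at day 0, where 50.3% of genes did, by as little as 0.005 for Snhg6; with each array centred on its own median this was 5 of 7. Both lines are read against the same control array on each day, and these signs have no test.

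Between the days the sign of the median differed by line. It was -0.39 in control, with Snhg1, Snhg3, Snhg5, Snhg7 and Snhg12 lower and Snhg6 and Snhg11 higher. It was 0.18 in the Chd4 line, with 4 hosts higher, and 0.29 in the Mbd3 line, with 6 higher. The medians over all genes compared were 0.003, -0.01 and -0.03. The day effect of the Chd4 line differed from that of control by at least 1.5-fold for 2 of the 7 hosts, Snhg12 (1.30) and Snhg7 (0.73), against 30.9% of genes in either direction. That of the Mbd3 line did so for 3 of the 7, Snhg12 (1.18), Snhg3 (0.80) and Snhg5 (0.68), against 24.9% of genes. At 2-fold only Snhg12 passed in each, against 13.5% of genes for the Chd4 line and 9.57% for the Mbd3 line.

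The additive limma fit, with terms for hairpin and day over the 6 arrays, lets arrays serve as error for each other; it called 0 of the 7 hosts and 0 of 13037 genes (0%) in each of its 3 contrasts at an adjusted p under 0.05. The model has 2 residual degrees of freedom and counts any day effect that differs between lines as error. At an unadjusted limma p under 0.05, 1 of the 7 hosts passed between the days and 0 in either knockdown contrast. Of the 13037 genes, 1978 passed between the days, 1023 for Chd4 and 650 for Mbd3. Beside these, the count of hosts singles out no change of the hosts as a class. The host was Snhg11, at 0.75 ± 0.13 (SE), with limma adjusted p = 0.18; it was higher at day 4 in 3 of 3 lines. Snhg6, also higher in 3 of 3 lines, was at 0.25 ± 0.11 (SE), with limma adjusted p = 0.38. The shared knockdown effect on Snhg12 was -0.16 ± 0.36 (SE) for Chd4 and -0.17 ± 0.36 (SE) for Mbd3, an SE that holds its opposite signs at the 2 days. For Snhg11 the Chd4 effect was 0.40 ± 0.16 (SE), limma adjusted p = 0.61.

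In the 4 knockdown arrays alone, which takes the Chd4 and Mbd3 lines as replicates of each other with 1 residual degree of freedom, limma called 671 of 13037 genes between the days (5.15%), and 1 of the 7 hosts among them. This was Snhg11, at 0.78 ± 0.15 (SE) with limma adjusted p = 0.026. It rests on the brighter of its probe sets. Snhg7 and Snhg12 were at 0.37 ± 0.15 and 0.35 ± 0.14 (SE), both with limma adjusted p = 0.22.

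The snoRNAs themselves could be set beside their hosts where one lying within the RefSeq span of a host had a probe set of its own. This held for 8 snoRNAs in 4 hosts; the RefSeq table gives no strand, and a probe set for so short an RNA may also read its unspliced host. Snord22, within Snhg1, read 855 in control, 1222 in the Chd4 line and 917 in the Mbd3 line at day 0, and 1277, 338 and 588 at day 4. The Chd4 array of day 4 was the lowest, with the Mbd3 array next. Its log2 difference from control at day 4 was -1.92 in the Chd4 line and -1.12 in the Mbd3 line, where Snhg1 itself differed by 0.05 and 0.36.

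The snoRNAs of Snhg12 had no common pattern. Snora16a read 497 in control, 546 in the Chd4 line and 422 in the Mbd3 line at day 0, and 468, 125 and 220 at day 4, a difference from control of -1.91 and -1.09 at day 4. Snord99 read 1652, 2033 and 1760 at day 0 and 1732, 611 and 1075 at day 4, a difference of -1.50 and -0.69. For Snora44 and Snora61 the day 4 differences were 0.04 and -0.34 in the Chd4 line and 0.20 and -0.15 in the Mbd3 line. Snhg12, the host of all 4, stood at 0.48 and 0.42. At day 0, where Snhg12 was 0.81 below control in the Chd4 line, Snora16a and Snord99 were 0.13 and 0.30 above it, Snora44 stood at -0.13 and Snora61 at -0.46.

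Snord87 within Snhg6 was at -0.53 and -0.38 against control at day 4 in the Chd4 and Mbd3 lines, with its host at -0.03 and 0.05. Of the U17 snoRNAs within Snhg3, Snora73a was at 0.11 and 0.42 and Snora73b at -0.28 and 0.28, with Snhg3 at 0.22 and 0.66. Both U17 snoRNAs were lower at day 4 than at day 0 in control (-0.65 and -0.29 for Snora73a and Snora73b), as Snhg3 was (-0.52).

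Of these 8 snoRNAs, 3 were at least 1.5-fold below control at day 4 in the Chd4 line and 3 in the Mbd3 line, the same ones (Snord22, Snora16a and Snord99), against 15.4% and 13.2% of all genes compared. Low readings at day 4 were also seen for snoRNAs outside these hosts: 24 of 67 were at least 1.5-fold below control in the Chd4 line and 13 of 67 in the Mbd3 line, with medians of -0.33 and -0.14. At day 0 the counts below control were 0 of 66 and 1 of 68, against 3.56% and 2.04% of all genes compared. The day 4 array of the Chd4 line thus read low for many snoRNAs, and the part of small-RNA recovery in these values was not tested.

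**Figure D3:**
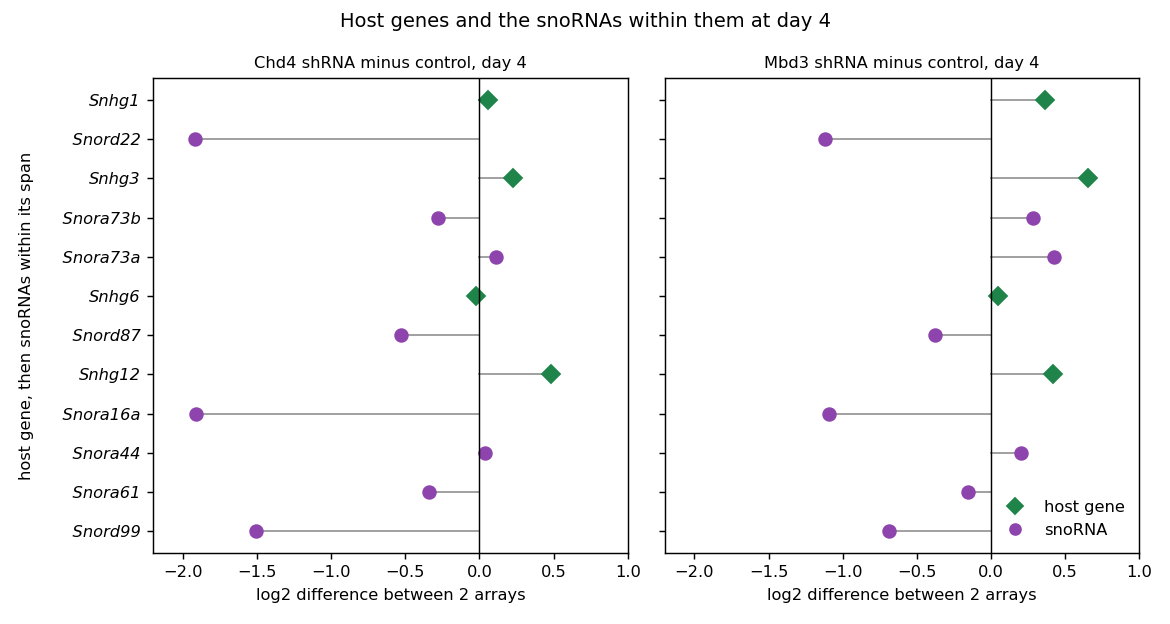
Log2 difference from control at day 4 for 4 hosts (green diamonds) and for the snoRNAs within them that have a probe set (purple circles), in the Chd4 line (left) and the Mbd3 line (right), 1 array per group. Snord22, Snora16a and Snord99 lie at -1.92, -1.91 and -1.50 in the Chd4 line, while Snhg1 and Snhg12 lie at 0.05 and 0.48.

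Other genes of the pathway were taken from fixed lists. Of 12 other noncoding hosts with a probe set, 11 were compared between the days in control: 2 were at least 1.5-fold higher (Snhg18, 0.67, and Snhg14, 0.62) and 3 lower, among them Snhg4 (-0.90) and Snhg15 (-0.64), where 17.3% of all genes were higher and 11.2% lower by that much. With each array centred on its median, 1 of the 12 was lower by that much and 2 were higher. In the knockdown lines 0 of 11 passed between the days in either direction, against 10.5% of genes in the Chd4 line and 10.4% in the Mbd3 line. Against control at day 4, 5 were higher and 5 lower in the Chd4 line, with a median of -0.15, and 6 higher and 5 lower in the Mbd3 line, with a median of 0.04. Snhg18 stood at -0.70 and -0.61 in the Chd4 and Mbd3 lines, and Snhg14 at -0.69 in the Chd4 line. At day 4 Snhg4 was above control by 0.51 in the Chd4 line and 0.68 in the Mbd3 line, and at day 0 below it by log2 differences of -0.38 and -0.31, the sign pattern of Snhg12 at smaller size at day 0.

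The 33 protein-coding hosts with a probe set, mostly genes of ribosomal proteins and translation factors, had medians near 0 between the days. Their probe sets differed widely in level. On the day 0 control array Rps13 read 31.3 and Rpl21 read 5219, where the array median was 41.3 and the highest reading 7649. The part of very dim or very bright probe sets in these small differences was not tested. Of 32 compared between the days in control, 0 were at least 1.5-fold higher (17.3% of all genes) and 2 lower (11.2%), Ppan (-1.06), a ribosome assembly factor, and Tnpo2 (-0.79), a nuclear import receptor. Their median was 0.001 in control, -0.02 in the Chd4 line and -0.04 in the Mbd3 line, against -0.39, 0.18 and 0.29 for the 7 noncoding hosts. The other noncoding hosts had medians of -0.13, -0.17 and 0.09. The median of the other noncoding hosts was thus nearer 0 than that of the 7 in control and in the Mbd3 line, with the same sign. In the Chd4 line it had the opposite sign. The difference between these lists was not tested. Eif4a1, an RNA helicase of translation initiation, was at -0.78 against control in the Chd4 line at day 4.

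Of 18 genes of proteins that bind and assemble snoRNAs, 15 read lower at day 4 than at day 0 in control and 3 higher, where 49.8% of all genes compared were lower. At least 1.5-fold lower were 2 of the 18, against 11.2% of all genes: Nhp2 (-0.86), a core protein of box H/ACA particles, and Ruvbl1 (-0.70), an ATPase of snoRNP assembly. Nop58, a core box C/D protein, was at -0.56. The list median was -0.39 in control, 0.05 in the Chd4 line and -0.14 in the Mbd3 line, and 0.25 and 0.13 against control at day 4. At day 0, 16 of 18 were below control in the Chd4 line and 15 of 18 in the Mbd3 line, where 51.3% and 50.3% of all genes compared were. The medians were -0.20 and -0.11. By 1.5-fold 0 were lower in either line, against 3.56% and 2.04% of all genes. Both lines are read against the same control array, and these signs have no test. With each array centred on its median, 13 of 18 were below control in the Mbd3 line.

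Of 9 MYC and ribosome biogenesis regulators, 5 were at least 1.5-fold lower at day 4 in control, against 11.2% of all genes. Among them were Myc (-1.64), the RNA polymerase I factor Rrn3 (-0.99) and the polymerase I subunit Polr1b (-0.83). Higher by that much was 1, Mycl (1.72), against 17.3% of all genes. The median was -0.73 in control, 0.22 in the Chd4 line and -0.11 in the Mbd3 line. Of 9 nonsense-mediated decay factors, 1 was at least 1.5-fold lower at day 4 in control, the helicase gene Upf1 (-0.60), against 11.2% of all genes. With each array centred on its median, 0 of the 9 were. Upf2 and Smg1, with 0.84 and 0.64, were the 2 of 9 decay factors at least 1.5-fold above control in the Chd4 line at day 4, against 11.1% of all genes. Of 9 regulators of TOP mRNA translation, 1 was at least 1.5-fold lower at day 4 in control, again against 11.2% of all genes. It was Eif4ebp1 (-1.18), a repressor of cap-dependent initiation. At day 4 Eif4ebp1 and Larp1, which binds TOP mRNAs, were above control by 1.14 and 0.70 in the Chd4 line and by 0.76 and 0.66 in the Mbd3 line.

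**Figure D4:**
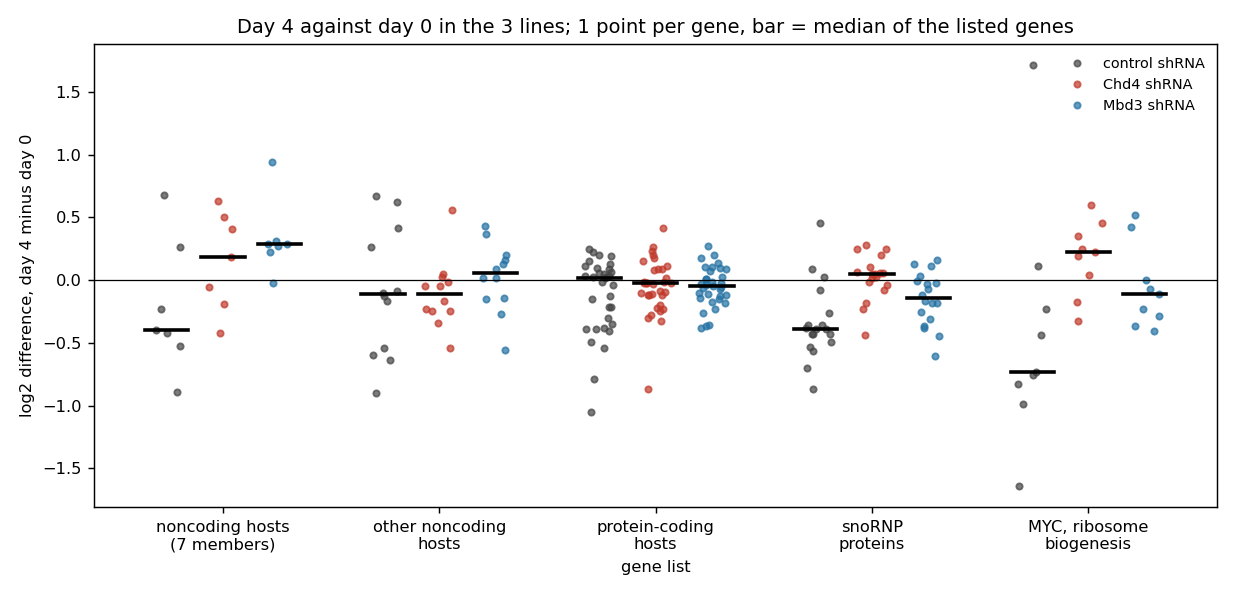
Log2 difference of day 4 from day 0 in the control (grey), Chd4 (red) and Mbd3 (blue) lines, 1 point per gene with a probe set, with bars at the medians. The lists drawn are the 7 noncoding hosts, other noncoding hosts, protein-coding hosts, snoRNP proteins, and MYC and ribosome biogenesis regulators. The median of the 7 noncoding hosts is -0.39 in control and 0.18 and 0.29 in the knockdown lines, and that of the snoRNP proteins is -0.39, 0.05 and -0.14.

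The hosts did not share a pattern over the 6 arrays. Pearson's r between pairs of hosts, given as a description over 6 arrays, ran from -0.65 (Snhg1 with Snhg6) to 0.87 (Snhg6 with Snhg11), with 0.82 for Snhg1 with Snhg3 and 0.71 for Snhg5 with Snhg12. The mean profile of the 7 hosts, each centred on its own mean, was lowest in the Mbd3 line at day 0 (-0.17) and in control at day 4 (-0.14), and highest in the Mbd3 line at day 4 (0.16). Of 7757 other genes with a range of at least 0.5 over the arrays, those most like this mean profile were Hnf4a (r = 0.96), Foxp1 (0.96), Etv1 (0.95), Dancr (0.95) and Zfp808 (0.95). These are the highest r among 7757 over only 6 arrays, so their size has no weight as a test. Hnf4a read between 43.3 (control, day 4) and 64.2 (Chd4 line, day 4), not far above the array medians. Dancr, itself annotated as a snoRNA host in mammals, read 112, 103 and 92.2 in the control, Chd4 and Mbd3 lines at day 0 and 87.0, 125 and 118 at day 4.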

How the data were processed

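The deposited values are probe set intensities on a linear scale from Mouse Gene 2.0 ST arrays, processed by the authors with RMA, per the submitters' processing notes, and analysed in GeneSpring GX 12.6.1, per the series design text. RMA corrects background, equalizes array distributions and summarizes probes. Array medians ran from 39.6 to 41.4. A genome build was not given in the sources used here.

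Log2 of the intensities was taken without further scaling. Of 34351 probe sets, 23521 carried 1 symbol in the platform annotation, 1814 several and 9016 none; only the first kind named a gene, and 23328 of them had a gene ID in the RefSeq table (GRCm38.p6), through which symbols were updated. The probe set with the highest mean stood for a gene. Genes were compared between 2 arrays where the higher of the 2 readings was at or above the median of its array. Differences past 1.5-fold were counted.

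limma 3.58.1 (R 4.3.3) used terms for hairpin and day on 13037 genes with a mean at or above the median of all values, with Benjamini-Hochberg adjustment. The labels do not say whether an array is 1 culture or a pool, so p-values measure only the spread between these arrays. This step was tested on simulated data with the same spread for every gene and no day effect that differs between lines. That test does not cover the day effects that differ between lines here. Other steps used Python 3.11.15, numpy 2.4.6, pandas 2.3.3 and matplotlib 3.10.9.

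The hosts and the gene lists were chosen with earlier results of these data known. All hosts were named; from other lists at most 4 genes per comparison, those with the largest differences, were named, and the 5 genes most like the mean profile. The 2 comparisons between knockdown lines were added after the data were seen. The RefSeq gene table gives no strand, so snoRNAs were tied to hosts by span alone. Alternatives were 16 subtracted before log2, since the lowest intensities lay just above it, median-centring, a floor at the highest array median, averaged probe sets, 2-fold, no filter on dim genes and an intensity trend in limma.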

Additional observations from a re-analysis of the deposited data

Results flagged for a closer look

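With 1 array per group, the results below were picked out because the effect had opposite signs under the same contrast, with both effects past a set minimum size, and the smallest effect among them was 0.35 in size on the log2 scale. These differences were not tested. For Snhg12, the effect of Chd4 knockdown was -0.81 at day 0 and 0.48 at day 4, a difference of 1.30 on the log2 scale, and that of Mbd3 knockdown was -0.76 and 0.42, a difference of 1.18. Also for Snhg12, the day effect was -0.89 in control and 0.41 in the Chd4 line, a difference of 1.30 that uses the same 4 arrays. For Snhg7, the effect of Chd4 knockdown was -0.35 at day 0 and 0.38 at day 4, a difference of 0.73. Each of these differences uses both control arrays. For Snhg12 the day 0 control array was the highest of the 6 and the day 4 control array the lowest.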

How the results depend on the processing

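The median difference of the hosts moved by less than 0.1 on the log2 scale under every alternative in each of the 9 comparisons. At 2-fold in place of 1.5-fold, the count of hosts was 0 in all 9, where 1.5-fold gave 0 to 2. With the probe sets of a gene averaged, which changes Snhg11, the count became 1 in place of 2 between the days in control, 0 in place of 1 between the days in the Chd4 line and 0 in place of 1 between the knockdown lines at day 0; the Snhg11 difference of day 4 from day 0 was then 0.27 in control, 0.42 in the Chd4 line and 0.77 in the Mbd3 line. Subtracting 16, median-centring and the floor left every count of the 7 hosts past 1.5-fold as it was. Counts in the other gene lists were less stable. Between the days in control, median-centring left 1 of 12 other noncoding hosts lower by 1.5-fold in place of 3. Subtracting 16 made it 4 of 33 protein-coding hosts in place of 2. In limma, 16 subtracted, no filter, centring and an intensity trend each gave 0 hosts called in all 3 contrasts; the 4 knockdown arrays alone gave 1 between the days. No host past 1.5-fold changed sign under any alternative run. No analysis paired by replicate was run, since the labels number no replicates; the limma fit holds each line as a term, so its day contrast is within lines. The 1 array per group limits every difference, while all hosts read above the array medians.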
